A study of Gallus gallus with 12 samples.

Results

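The liver of a hen changes its work when laying begins. Under oestrogen it makes the yolk precursors, vitellogenins and very low density lipoprotein, and releases them into the blood for uptake by the growing follicles, and in birds it is also the main site of fatty acid synthesis. Broodiness is the state in which a hen stops laying to incubate, with a regressed ovary. Long non-coding RNAs (lncRNAs) are transcripts without an evident coding region, and their levels in the liver can be followed beside those of the mRNAs.

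The data compared livers taken after the expected onset of laying with livers taken before it. They came from 12 female Luhua chickens, an indigenous Chinese breed, with 3 birds at each of 4 ages and no treatment. The later livers were 3 of the peak laying period (PL, day 220) and 3 of the broodiness period (BP, day 400), and the earlier livers were 3 of the juvenile period (JP, day 60) and 3 of the sexual maturity period (SM, day 133). All 12 libraries of the series entered, chosen by stage label and not by any measured value. Each stage holds 1 age, so age and laying cannot be told apart, and the study describes hens at SM and BP as not producing eggs, so the later livers join a laying and a non-laying stage. The laying record of each hen is not given in the sources used here.

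Levels were FPKM (by definition fragments per kilobase of transcript, scaled to the mapped total of the library), analysed as log2(FPKM + 1). A transcript was tested if 3 or more livers exceeded an FPKM of 0.1, a filter passed by 16703 of 18260 mRNAs and 6254 of 16930 lncRNAs. The later stages were set against the earlier ones as 2 differences, PL minus JP and BP minus SM, and as their mean. In the study's read statistics PL and JP had a similar share of mapped reads, as had BP and SM, so a library difference of that kind enters both sides of each difference. The share was lower in BP and SM than in PL and JP. An order of PL against BP or SM, or of JP against SM or BP, therefore crosses that library difference. Such an order is given as a description only. The 2 differences share no liver, although limma, the linear model used, estimated 1 spread from all of them. A transcript was called at an adjusted p under 0.05 and a fold of at least 1.5, and a called mean counted as agreeing where both differences had the same sign. The stricter class, called alike, needed both differences to pass in the same direction.

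The libraries were not equal in other respects. The FPKM sum of all mRNAs was 408300 to 478990 in PL against 516700 to 539530 in JP, and 741760 to 772040 in BP against 688210 to 727590 in SM. The study's read statistics list more clean reads for every JP library than for any PL library, while BP and SM overlap. The value of 1 fragment relative to JP replicate 1 was estimated from the most frequent ratio among low values. It was 0.12 to 0.57 in PL and -0.04 to 0.04 in JP on the log2 scale, and 0.56 to 0.68 in BP and 0.40 to 0.66 in SM. The median SD within a stage over tested mRNAs was 0.24 in PL, 0.16 in JP, 0.18 in BP and 0.15 in SM on the log2(FPKM + 1) scale. PL replicate 3 stood apart from the other PL livers, with a median-ratio size factor of 1.04 beside 0.69 and 0.79, and counts that move most without it are given beside them. Neither table pairs transcripts with gene symbols, so the mRNAs are described by identifier and level only, no function is given to any, and markers of liver cells and of other cell types could not be read.

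Both differences pointed the same way, with a called mean, for 1264 mRNAs (7.57% of those tested). Of these, 401 were higher after the onset of laying (2.4%) and 863 were lower (5.17%). The median of the mean FPKM over the 12 livers was 8.99 for the higher mRNAs and 10.7 for the lower ones, beside 3.18 over all tested, on a scale where a fold is harder to reach at low levels. Fewer cells of a type and less RNA per cell cannot be told apart in whole liver. The split depended on the scaling of the libraries. The share of higher calls was 31.7% on FPKM as deposited and 54.8% after median-ratio scaling, under which 618 were higher and 510 lower, with 399 of the 401 higher and 508 of the 863 lower mRNAs kept in the same direction. Without PL replicate 3, 438 were higher and 1408 lower.

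The agreeing higher mRNAs took a larger part of the FPKM sum after the onset of laying. They held 34.5%, 30.7% and 11.4% of the sum of all mRNAs in the 3 PL livers, against 1.51%, 1.62% and 1.78% in the 3 JP livers. In BP they held 4.88%, 7.08% and 5.18%, against 2.24%, 2.61% and 3.05% in SM. The groups did not overlap in either pair, and every PL liver lay above every BP liver. The agreeing lower mRNAs held 7.05%, 7.93% and 10.6% in PL, against 29.8%, 25.3% and 24.8% in JP, and 7.99%, 7.45% and 8.40% in BP, against 14.2%, 12.6% and 12.6% in SM. A few abundant mRNAs made up much of the higher sums in PL. Of the 140780 FPKM of the 401 in PL replicate 1, 52440 came from 1 mRNA and 42344 from 9 others. That 1 mRNA was not called in BP minus SM. In BP replicate 1 the same mRNAs gave 529.3 and 1406.2 of 36193 FPKM. These shares describe mRNAs chosen by the same contrast and carry no test.

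Most of the agreeing mRNAs passed in only 1 of the 2 differences. Among the 401 higher mRNAs, 40 were called in both differences, 312 (77.8%) in PL minus JP alone, 11 in BP minus SM alone and 38 in neither. The median was 1.38 for PL minus JP and 0.54 for BP minus SM on the log2 scale, and PL minus JP was the larger in 339. Among the 863 lower mRNAs, 27 were called in both, 675 (78.2%) in PL minus JP alone, 28 in BP minus SM alone and 133 in neither, at medians of -1.09 for PL minus JP and -0.52 for BP minus SM. A call in 1 difference and not in the other does not show that they differ. The test of the difference itself was passed by 99 of the 401 with the larger rise in PL minus JP and by 2 with the larger rise in BP minus SM, and by 143 and 9 of the 863 with the larger fall in each. Over all tested mRNAs this test called 1172 (7.02%), of which 528 (3.16%) had the higher value in PL minus JP and 644 (3.86%) the higher value in BP minus SM. Under TPM scaling (each liver brought to the same FPKM sum) the share with the higher value in PL minus JP was 81.9%, against 45.1% on FPKM as deposited. The count was 2196 without PL replicate 3, with 736 higher in PL minus JP and 1460 higher in BP minus SM. It was 580 to 675 without SM replicate 1 or 3, BP replicate 3, JP replicate 1 or 3, or PL replicate 2, and 748 without SM replicate 2.

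Each difference on its own called a different number of mRNAs. PL minus JP called 1099 higher and 2098 lower (19.1%), and BP minus SM called 77 higher and 117 lower (1.16%). The share of higher calls was 34.4% in PL minus JP and 39.7% in BP minus SM on FPKM as deposited. It was 50.3% and 56.0% after median-ratio scaling, and 61.1% and 27.9% after TPM scaling. Without PL replicate 3, PL minus JP called 4140 mRNAs. BP minus SM then called 425, although that liver enters it only through the shared filter and estimate of the spread. It called 76 to 111 without any 1 of the SM livers or BP replicate 2.

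The mRNAs called in 1 difference were then read in the other, which uses none of the same livers. The calls are still not independent, because limma estimated 1 spread for both differences from all livers. An mRNA with a small estimated spread is easier to call in both. With each difference fitted on its own livers, and so on fewer of them, 30 mRNAs were called alike, against 67 in the main model. The shares of all tested also include low mRNAs, for which a fold is harder to reach on this scale. The 77 mRNAs called higher in BP minus SM had a median of 0.90 in PL minus JP, where 74.0% were above 0 beside 43.5% of all tested mRNAs, and 40 of them (51.9%) were called higher beside 6.58% of all tested. The 117 called lower in BP minus SM included 27 (23.1%) called lower in PL minus JP beside 12.6% of all tested. Read the other way, the same mRNAs make a smaller share of longer lists. Of the 1099 called higher in PL minus JP, 40 (3.64%) were called higher in BP minus SM beside 0.461% of all tested, and 50.7% were above 0 beside 34.6%, at a median of 0.01 beside -0.08 over all tested. Of the 2098 called lower, 27 (1.29%) were called lower beside 0.7%, and 70.3% were below 0 beside 65.3% of all tested. Across the 16703 mRNAs, Pearson's r between the 2 differences was 0.33 and Spearman's rho was 0.14, as a description of transcripts measured in the same libraries and not of independent points.

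**Figure D1:**
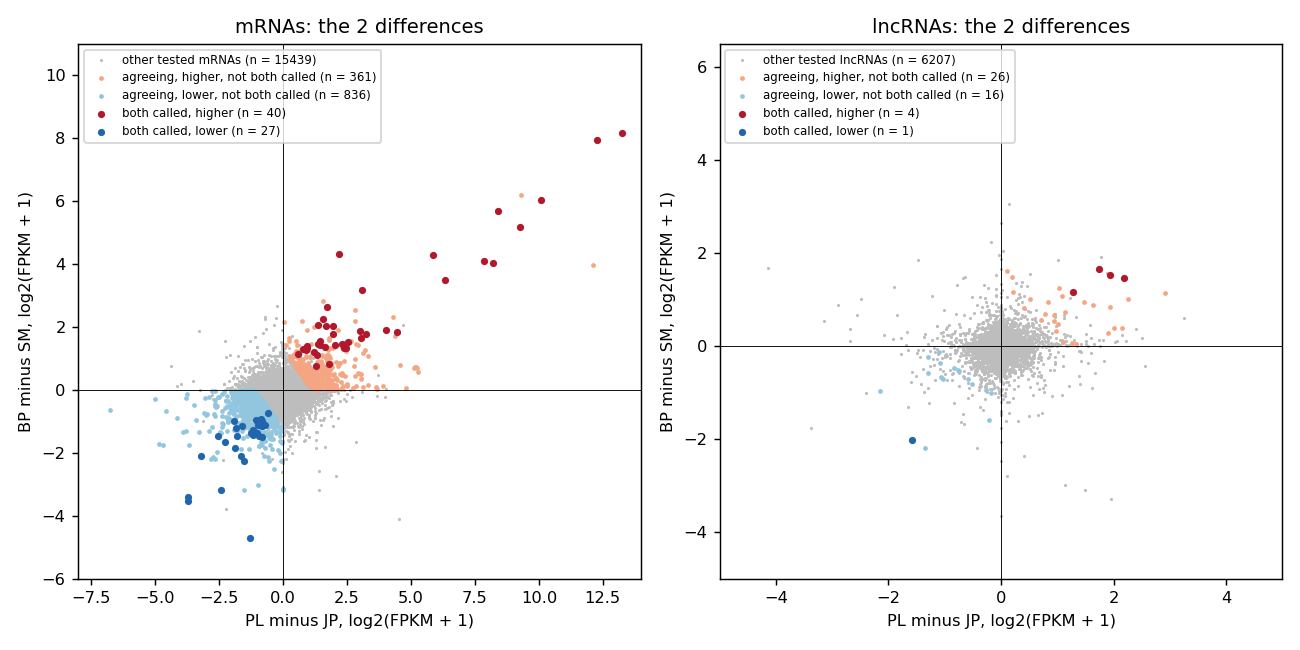
PL minus JP (horizontal axis) against BP minus SM (vertical axis) on the log2(FPKM + 1) scale for each tested mRNA (left) and lncRNA (right). Points are transcripts, colored by whether the mean of both differences was called with agreeing signs and whether both differences were called. The 40 mRNAs called higher in both reach 13.24 on the horizontal and 8.16 on the vertical axis, and most agreeing mRNAs lie closer to the horizontal axis than to the vertical one.

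Both differences were called alike for 67 mRNAs (0.401%), 40 of them higher (0.239%) and 27 lower (0.162%). The 40 had a median of 2.10 in PL minus JP and 1.79 in BP minus SM, and the 27 had medians of -1.28 and -1.43. For all 67 the 3 later livers of each pair were apart from the 3 earlier ones. All 6 later livers lay above all 6 earlier livers for 34 of the 40, and below them for 21 of the 27. Over all tested mRNAs, the later livers were above the earlier ones in both pairs for 1.63% and below them for 4.1%, and as 6 against 6 for 0.754% and 1.51%. The 67 were chosen by calls on these same livers, so their separation follows in part from the choice and is a description only. The PL mean was above the BP mean for 23 of the 40 and 7 of the 27, and the SM mean was above the JP mean for 29 and 17. These orders cross the library difference between the pairs, and their shares over all tested mRNAs are not given here.

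The number called alike moved with single livers. Without PL replicate 3 it was 175, with 61 higher and 114 lower, of which 64 were among the 67. Without SM replicate 3 it was 30, with 24 higher and 6 lower, and without SM replicate 1, SM replicate 2 or BP replicate 2 it was 32 to 35. After median-ratio scaling 47 were higher and 19 lower, a share of higher calls of 71.2% beside 59.7% on FPKM as deposited. No mRNA of the 67 had a mean difference of the other sign under any of the 8 other settings. Of these settings only the added value and the scalings change that difference, so the rest could not turn it. Of the 67, 15 kept their call in both differences in every one of the 8 settings and of the 12 fits without 1 liver. Of these 15, 13 were higher, with PL minus JP of 1.64 to 13.24 and BP minus SM of 1.36 to 8.16, and 2 were lower.

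**Figure D2:**
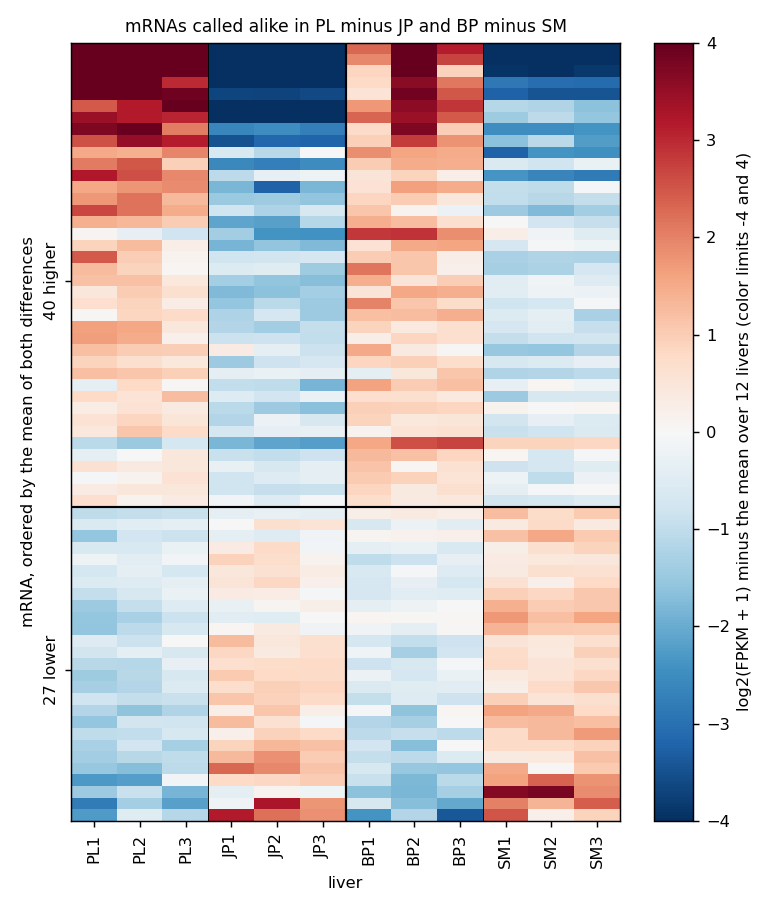
The 67 mRNAs called alike in both differences (rows, ordered by the mean of both differences, 40 higher above 27 lower) in each liver (columns, PL left of JP and BP left of SM). Color is log2(FPKM + 1) minus the row's mean over the 12 livers, with the color limits at -4 and 4, so values beyond them look alike. Rows at the top are high in all 6 PL and BP livers, with BP replicate 2 above the other BP livers. The 27 rows at the bottom are lower in the later livers within each pair, and for 21 of them all 6 later livers lie below all 6 earlier ones.

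The largest rises belonged to 9 mRNAs with a mean of both differences above 4. They rose by 5.85 to 13.24 in PL minus JP and by 3.49 to 8.16 in BP minus SM on the log2 scale. Their summed FPKM was 42344, 38601 and 12774 in the 3 PL livers, against 2.45, 5.64 and 7.20 in the 3 JP livers. It was 1406.2, 8329.2 and 2325.3 in the 3 BP livers, against 52.7, 62.8 and 43.4 in the 3 SM livers. The livers therefore fell into 4 ranges without overlap, with PL highest, then BP, then SM, and JP lowest. The order of PL against BP and of SM against JP crosses the library difference between the pairs. As a share of the FPKM sum of all mRNAs the 9 held 10.4%, 8.85% and 2.67% in PL, against at most 0.00134% in JP, and 0.190%, 1.11% and 0.301% in BP, against 0.0063% to 0.0090% in SM.

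Each of the 9 had all 6 later livers above all 6 earlier ones, a PL mean above the BP mean, and an SM mean above the JP mean. All 6 later livers lay above all 6 earlier ones for 0.754% of all tested mRNAs. The 9 were chosen by calls and a large mean on these same livers, so their separation follows in part from the choice. The larger difference was PL minus JP in 9 of 9, by 1.57 to 5.08 on the log2 scale, and 7 of 9 passed the test of that difference (limma, adjusted p of 0.0022 to 0.33 over the 9). Over all tested mRNAs, 3.16% passed it with the higher value in PL minus JP. The livers of a stage were also ordered alike across the 9. BP replicate 2 was the highest BP liver for 9 of 9 and BP replicate 1 the lowest for 9 of 9, and PL replicate 3 was the lowest PL liver for 7 of 9. These mRNAs were measured in the same libraries, so their common order is 1 observation on the birds and not 9.

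**Figure D3:**
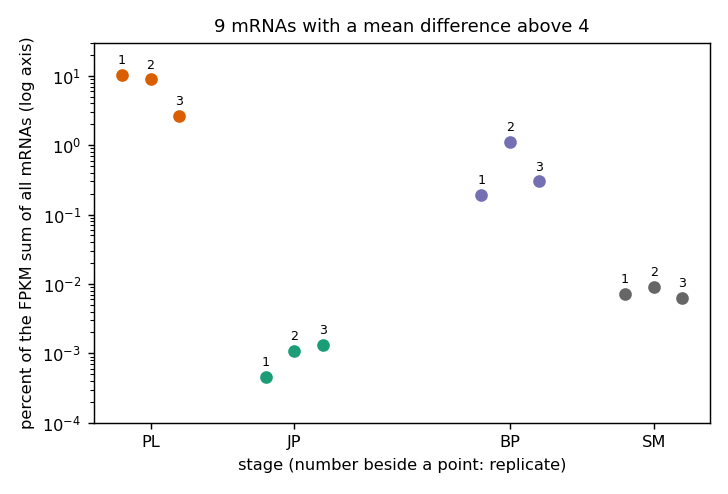
Share of the FPKM sum of all mRNAs held by the 9 mRNAs with a mean difference above 4, in percent on a log axis, for each liver (points, numbered by replicate), with PL left of JP and BP left of SM. The PL livers lie at 2.67% to 10.4% and the BP livers at 0.190% to 1.11%, all above the JP and SM livers, which lie at 0.0090% or less.

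The largest rise was that of ENSGALT00000060226. Its FPKM was 27300, 25146 and 7674.5 in PL, against 0.395, 1.05 and 1.03 in JP, and 601.2, 4567.3 and 1075.5 in BP, against 3.97, 4.70 and 3.48 in SM. Every later liver was above every earlier one, and the 3 PL livers were above the 3 BP livers. The mean of both differences was 10.70 (SE 0.44, limma adjusted p = 1.26e-07), with 13.24 for PL minus JP and 8.16 for BP minus SM (SE 0.63 each). The difference between them, 5.08 (SE 0.89), passed its own test at an adjusted p of 0.0093.

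ENSGALT00000051020 followed the same order at a lower level. Its FPKM was 9088, 8211.9 and 2525.4 in PL, against 0.0971, 0.164 and 0.257 in JP, and 179.4, 1363.8 and 308.3 in BP, against 0.895, 1.0 and 0.360 in SM. The groups did not overlap, and BP replicate 2 was again the highest BP liver. The mean of both differences was 10.10 (SE 0.44, adjusted p = 1.58e-07), and PL minus JP exceeded BP minus SM by 4.32 (SE 0.89, adjusted p = 0.016). The mean and both differences of these 2 mRNAs stayed called under all 20 alternatives.

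Another 2 agreeing mRNAs had a mean above 4 but were not called in BP minus SM, and both differed widely among the BP livers. The first had 12846, 11005 and 2146.2 FPKM in PL, against 0.292, 0.699 and 0.641 in JP, and 0.524, 563.8 and 12.2 in BP, against 0.407, 0.349 and 0.501 in SM. BP replicate 1 was thus close to the SM livers while BP replicate 2 was far above them, and BP minus SM was 3.99 (SE 1.52, adjusted p = 0.26). The second had 52440, 48929 and 10201 FPKM in PL, against 12.3, 36.4 and 208.4 in JP, and 529.3, 12322 and 7422 in BP, against 12.4, 584.9 and 14.7 in SM. BP replicate 1 was below SM replicate 2, so this pair overlapped, and BP minus SM was 6.20 (SE 1.54, adjusted p = 0.082). In both, as in the 9, BP replicate 1 was the lowest and BP replicate 2 the highest of the BP livers.

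The falls were smaller in the mean of both differences. The lowest mean of both differences among the 27 mRNAs called lower alike was -3.61, that of ENSGALT00000017862. Its FPKM was 33.8, 118.4 and 75.4 in PL, against 1525.5, 777.6 and 599.4 in JP, and 31.3, 73.8 and 15.1 in BP, against 954.3, 194.4 and 311.4 in SM. All later livers were below all earlier ones, and the SM livers spread more than the JP livers. PL minus JP was -3.71 (SE 0.67, adjusted p = 0.0026) and BP minus SM was -3.52 (SE 0.67, adjusted p = 0.028).

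ENSGALT00000027063 had the second largest fall in the mean of both differences among the mRNAs called lower alike. It had 1.81, 6.62 and 3.34 FPKM in PL, against 16.2, 185.0 and 65.3 in JP, and 11.5, 4.96 and 3.70 in BP, against 77.6, 49.2 and 103.0 in SM. JP replicate 1 was low for its stage, yet still above all later livers. The mean of both differences was -3.56 (SE 0.49, adjusted p = 0.0012), with PL minus JP at -3.72 (SE 0.70, adjusted p = 0.0032) and BP minus SM at -3.40 (SE 0.70, adjusted p = 0.038). The BP minus SM call of these 2 mRNAs was lost under 6 and 9 of the 20 alternatives, at adjusted p-values of up to 0.080 and 0.13, while their mean and PL minus JP stayed called under all 20.

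In opposite directions, 6 mRNAs (0.0359%) were called in both differences. Without PL replicate 3 there were 16, under TPM scaling 12, without SM replicate 1, 2 or 3 between 1 and 3, and with each difference fitted on its own 6 livers 0. At the looser threshold of an unadjusted limma p under 0.05 in each, 218 of the 16703 tested mRNAs opposed each other. The number pointing the same way at that threshold is not given here. ENSGALT00000083848 had 8.95, 7.87 and 19.7 FPKM in PL, against 5.98, 2.44 and 2.95 in JP, and 1.26, 2.94 and 2.21 in BP, against 23.8, 32.5 and 24.3 in SM. It was higher in PL than in JP by 1.42 (SE 0.35, adjusted p = 0.012) and lower in BP than in SM by a difference of -3.18 (SE 0.35, adjusted p = 0.0011), and the 2 differences differed by 4.60 (SE 0.49, adjusted p = 8.73e-04). The PL minus JP call was lost under 2 of the 20 alternatives, at adjusted p-values of up to 0.074, and the BP minus SM call under none.

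ENSGALT00000031546 ran the other way. It had 17.6, 15.6 and 31.0 FPKM in PL, against 204.1, 225.3 and 198.6 in JP, and 136.8, 49.7 and 35.9 in BP, against 21.3, 15.2 and 13.6 in SM. The groups did not overlap in either pair, and the levels at JP stood above those of every later stage. PL minus JP was -3.29 (SE 0.40, adjusted p = 2.84e-04), BP minus SM was 1.87 (SE 0.40, adjusted p = 0.046), and the difference between them was -5.16 (SE 0.57, adjusted p = 0.0011). The BP minus SM call was lost under 15 of the 20 alternatives, at adjusted p-values of up to 0.16.

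**Figure D4:**
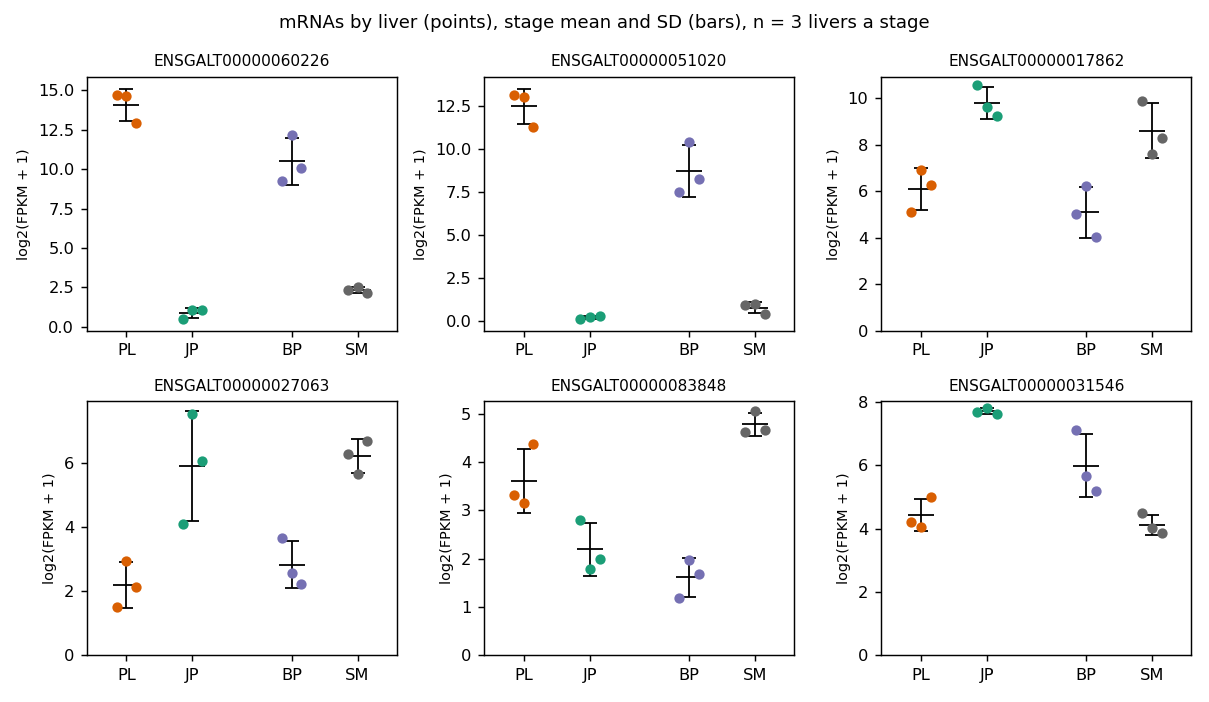
log2(FPKM + 1) of 6 mRNAs in each liver (points), with the stage mean and SD (bars, n = 3 livers a stage), PL left of JP and BP left of SM. The first 2 had the largest rises in the mean of both differences among the mRNAs called alike, and the next 2 the largest falls. The last 2, ENSGALT00000083848 and ENSGALT00000031546, are mRNAs whose 2 differences were called in opposite directions.

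No transcript of either table was at 0.1 FPKM or less in all 6 earlier livers and above 1 in all 6 later ones, or the reverse. With the later threshold at 0.1, 8 mRNAs and 6 lncRNAs were at or below it in all earlier livers and above it in all later ones, and 4 mRNAs and 5 lncRNAs were the reverse. These counts are of 16703 mRNAs and 6254 lncRNAs tested. Agreeing higher were 6 of the 8 and 4 of the 6, and agreeing lower were 0 of the 4 and 0 of the 5. Over all tested, 2.4% of mRNAs and 0.48% of lncRNAs agreed higher, and 5.17% and 0.272% agreed lower. The choice of these transcripts fixed the sign of both differences, and they passed the filter only through the side where they were high. These counts are therefore a description only.

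Among the lncRNAs, most of those tested passed in neither difference. Both differences pointed the same way, with a called mean, for 47 lncRNAs (0.752%), 30 of them higher after the onset of laying (0.48%) and 17 lower (0.272%). The share of higher calls was 63.8%, and 77.8% after median-ratio scaling. Their levels were low, with a median of the mean FPKM of 0.87 for the 30 and 0.61 for the 17, beside 0.19 over all tested lncRNAs. Among the 30, 4 were called in both differences, 17 in PL minus JP alone, 7 in BP minus SM alone and 2 in neither. Without PL replicate 3, 58 were higher and 26 lower, and 42 of these 84 were among the 47.

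PL minus JP called 45 lncRNAs higher (0.72%) and 33 lower (0.528%), 1.25% in all, and BP minus SM called 33 higher (0.528%) and 51 lower (0.815%), 1.34% in all. Of the 45 called higher in PL minus JP, 80.0% were above 0 in BP minus SM beside 44.4% of all tested, and 4 (8.89%) were called there beside 0.528%. Of the 33 called higher in BP minus SM, 51.5% were above 0 and 27.3% below 0 in PL minus JP, beside 48.1% and 47.4% of all tested, and the same 4 (12.1%) were called there beside 0.72%. The lower lists lay nearer to all tested. Of the 33 called lower in PL minus JP, 57.6% were below 0 in BP minus SM, beside 55.0%. There 1 (3.03%) was called lower, beside 0.815%. Of the 51 called lower in BP minus SM, 49.0% were below 0 in PL minus JP, beside 47.4%. The same lncRNA (1.96%) was called lower there, beside 0.528%. As for the mRNAs, the calls in both differences share 1 estimate of the spread and are not independent. PL minus JP called 143 lncRNAs without PL replicate 3, 42 to 51 without another PL liver or a JP liver, and BP minus SM called 54 without SM replicate 3. The share of higher calls in PL minus JP was 57.7% on FPKM as deposited and 72.6% after TPM scaling. Across the 6254 lncRNAs Pearson's r between the 2 differences was 0.10, again as a description. The test of the difference between the 2 differences called 35 lncRNAs (0.56%). It called 95 without PL replicate 3 and 10 to 23 without BP replicate 2 or 3, SM replicate 2 or 3, or any JP liver. In opposite directions, limma called 0 lncRNAs in both differences, or 2 without PL replicate 3 and 1 with 0.1 added or no variance trend. At an unadjusted limma p under 0.05 in each, 32 of the 6254 tested opposed each other.

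Both differences were called alike for 5 lncRNAs (0.0799%), 4 higher (0.064%) and 1 lower (0.016%), with 9 called alike without BP replicate 1 and 3 without PL replicate 1. All 5 are given here. The rule for named lncRNAs covered the 2 largest rises and the fall, and TCONS_00155620 and TCONS_00159592 were added after their values had been seen. TCONS_00155613 had 2.73, 2.93 and 3.97 FPKM in PL, against 0.152, 0.0620 and 0.0539 in JP, and 1.91, 2.78 and 2.93 in BP, against 0.141, 0.336 and 0.178 in SM. Every later liver was above every earlier one, and the PL and BP livers overlapped. The mean of both differences was 1.74 (SE 0.12, limma adjusted p = 1.45e-05), with 1.94 for PL minus JP and 1.53 for BP minus SM (SE 0.17 each). It was the only lncRNA of the 5 that stayed called in both differences under all 20 alternatives.

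TCONS_00155619 was also assayed by quantitative PCR in the study, and its primers are shown as the study lists them. Whether they amplify this transcript alone was not analysed here.
TCONS_00155619 forward: catcaactccagccttcctctgc
TCONS_00155619 reverse: cagcctgcggatacttccaagtc
Its FPKM was 3.61, 2.72 and 6.03 in PL, against 0.196, 0.0300 and 0.0377 in JP, and 1.67, 3.33 and 2.45 in BP, against 0.0339, 0.598 and 0.153 in SM. SM replicate 2 was the highest of the earlier livers and still below all later ones. The mean of both differences was 1.82 (SE 0.18, adjusted p = 7.84e-04), with PL minus JP at 2.19 and BP minus SM at 1.46 (SE 0.26 each, adjusted p = 0.0016 and 0.012).

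TCONS_00155620 had 1.28, 4.38 and 3.51 FPKM in PL, against 0.323, 0.0159 and 0.0932 in JP, and 3.09, 2.52 and 1.86 in BP, against 0.0596, 0.119 and 0.0981 in SM. The later and earlier livers did not overlap. The mean was 1.70 (SE 0.19, adjusted p = 0.0012). The identifiers of these 3 lncRNAs lie within 20 of each other in the assembly's numbering. Whether they lie at 1 locus and share reads was not analysed here, so they are not counted as 3 separate responses.

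TCONS_00159592 was called alike but did not separate the later from the earlier livers as a whole. It had 1.49, 1.43 and 1.80 FPKM in PL, against 0.0369, 0.050 and 0.0741 in JP, and 12.9, 7.26 and 10.9 in BP, against 3.40, 2.62 and 6.47 in SM. Both pairs were apart, while all 3 SM livers were above all 3 PL livers, and the order of the stages was JP, PL, SM and BP from low to high. The order of SM against PL crosses the library difference between the pairs and is a description only. For TCONS_00159592 PL minus JP was 1.29 (SE 0.27, limma adjusted p = 0.041) and BP minus SM was 1.18 (SE 0.27, adjusted p = 0.043). These calls were lost under 10 and 14 of the 20 alternatives.

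TCONS_00233135 was the only lncRNA called lower in both. It had 0.0060, 0 and 0.403 FPKM in PL, against 1.80, 3.62 and 1.89 in JP, and 0, 0 and 0.0142 in BP, against 2.26, 2.35 and 5.15 in SM. It was listed at 0 in 3 of the 6 later livers and lay above 1 in every earlier one, and PL replicate 3 was the highest of the later livers. The mean of both differences was -1.80 (SE 0.19, adjusted p = 8.22e-04), with -1.58 for PL minus JP and -2.02 for BP minus SM (SE 0.27 each). Leaving out 1 liver or changing a setting lost the PL minus JP call under 4 and the BP minus SM call under 1 of the 20 alternatives.

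**Figure D5:**
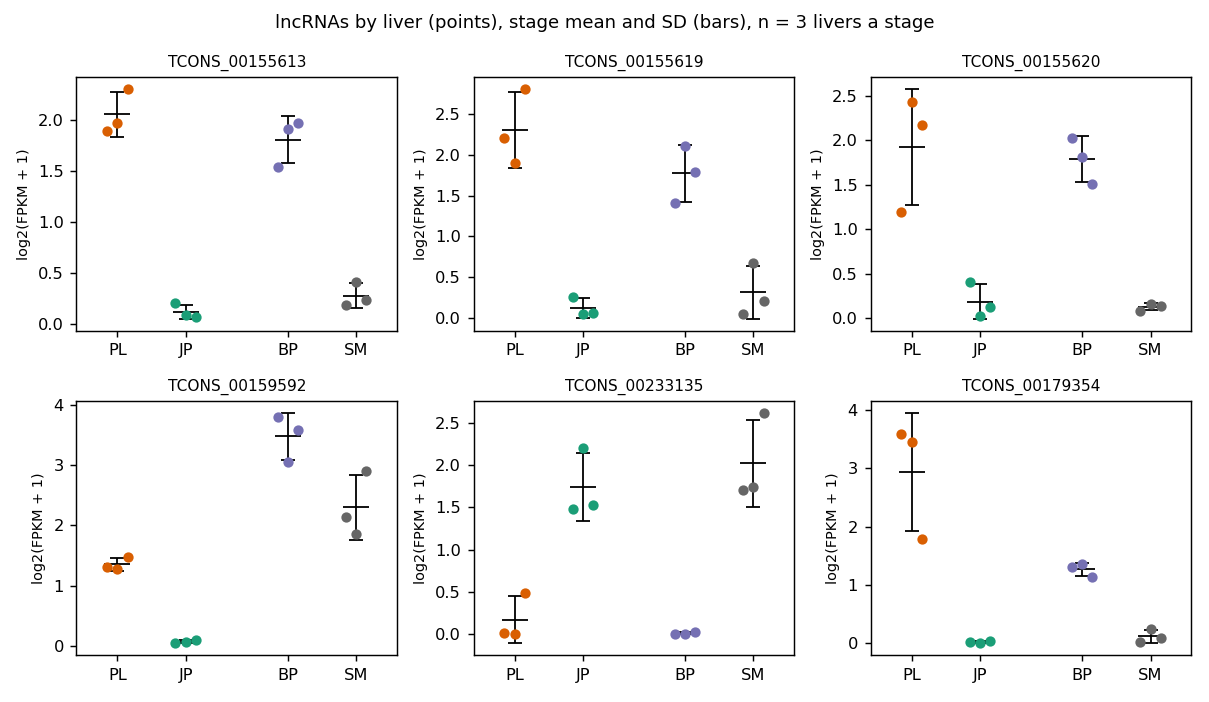
log2(FPKM + 1) of the 5 lncRNAs called alike in both differences, and of TCONS_00179354, in each liver (points), with the stage mean and SD (bars, n = 3 livers a stage), PL left of JP and BP left of SM. In 5 of the 6 panels the PL and BP livers are apart from all JP and SM livers. For TCONS_00159592 the SM livers lie above the PL livers, an order that crosses the library difference between the pairs. The 5 called alike were chosen by calls on these same livers, so their separation follows in part from the choice. The share of all tested lncRNAs with such separation is not given here.

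TCONS_00179354, also measured by quantitative PCR in the study, had the largest mean among the agreeing lncRNAs. Its primers are shown too, and whether they amplify it alone was likewise not analysed.
TCONS_00179354 forward: ctgatggaagtcaggcagctctc
TCONS_00179354 reverse: acaaggcaggtatcatgctggaag
It had 11.1, 9.95 and 2.44 FPKM in PL, against 0.0223, 0 and 0.0229 in JP, and 1.49, 1.56 and 1.21 in BP, against 0.0147, 0.181 and 0.0700 in SM. All later livers were above all earlier ones, and PL replicate 3 lay between the other PL livers and the BP livers. The mean was 2.04 (SE 0.26, adjusted p = 0.0031), and PL minus JP was 2.92 (SE 0.36, adjusted p = 0.0019). Each of these 2 calls was lost under 1 of the 20 alternatives, at adjusted p-values of up to 0.068 and 0.12. BP minus SM was 1.15 (SE 0.36, adjusted p = 0.14) and was not called, although its 2 groups did not overlap. Over the alternatives its adjusted p ran between 0.0017 and 0.36, and it was called under 3 of the 20. The 2 differences differed by 1.77 (SE 0.52, adjusted p = 0.15).

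It belongs to a run of 5 agreeing higher lncRNAs with neighbouring identifiers, TCONS_00179344 to TCONS_00179359. Their summed FPKM was 29.6, 24.6 and 6.66 in PL, against 0.0455, 0.0444 and 0.0515 in JP, and 4.03, 5.85 and 4.65 in BP, against 0.170, 0.288 and 0.0746 in SM. PL replicate 3 was the lowest PL liver for 5 of 5. The run of 3 around TCONS_00155613 had sums of 7.63, 10.03 and 13.5 in PL, against 0.670, 0.108 and 0.185 in JP, and 6.67, 8.63 and 7.25 in BP, against 0.234, 1.05 and 0.429 in SM. There PL replicate 3 had the highest sum, so the PL livers were ordered differently in the 2 runs. In all, 12 of the 30 higher lncRNAs lay in 4 such runs, and 5 of the 17 lower ones in 2, where 20 or fewer numbers separated neighbours.

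The other 3 lncRNAs measured by quantitative PCR were not called in the mean. TCONS_00083873 had 7.96, 6.10 and 1.33 FPKM in PL, against 0.0964, 0.307 and 0.0409 in JP, and 0.312, 1.56 and 0.692 in BP, against 0.395, 0.584 and 1.06 in SM. Its rise was in PL minus JP, at 2.21 (SE 0.42, adjusted p = 0.025), while BP and SM overlapped at a difference of 0.11 (SE 0.42, adjusted p = 0.94). The 2 differences were not shown to differ (2.10, SE 0.60, adjusted p = 0.14), and the PL minus JP call was lost under 7 of the 20 alternatives, at adjusted p-values of up to 0.18. The mean, at an adjusted p of 0.067, was called under 3 of the 20, without PL replicate 3 at 0.0018.

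TCONS_00037924 had 1.05, 5.88 and 5.25 FPKM in PL, against 29.4, 76.5 and 25.3 in JP, and 10.7, 9.19 and 11.9 in BP, against 6.92, 6.45 and 7.21 in SM. PL was below JP and BP was above SM, without overlap in either pair. PL minus JP was -3.15 (SE 0.48, adjusted p = 0.0080), BP minus SM was 0.55 (SE 0.48, adjusted p = 0.66), and the 2 differences differed by -3.71 (SE 0.68, adjusted p = 0.034).

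TCONS_00220501 was listed at 0 in 6 livers. It had 20.5, 26.1 and 29.8 FPKM in PL, against 17.9, 22.6 and 0 in JP, and 52.4, 0 and 0 in BP, against 0 in all 3 SM livers. It was present at 17.9 FPKM or more or listed at 0, with nothing between, and livers of JP and BP fell on both sides. It was not called in the mean (adjusted p = 0.37) or in either difference.

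The study sorted lncRNAs by their course over the 4 stages into numbered time profiles and by co-expression into modules, both made from these same livers, so the counts below are a description. Profile 39 held 11 agreeing higher lncRNAs among its 39 tested members (28.2%), profile 29 held 6 of 63 (9.52%), profile 41 held 4 of 45 (8.89%), profile 28 held 3 of 133 (2.26%) and module 2 held 12 of 89 (13.5%), beside 0.48% of all tested. The lists overlap, and all 12 of module 2 were also in profile 39 or profile 29. Several of those in profile 39 belong to the runs of neighbouring identifiers, so the counts are not of separate responses. The medians show how the profiles differ. Profile 39 had medians of 0.84 in PL minus JP and 0.43 in BP minus SM, while profile 29 had 1.26 and 0.05, and module 2 had 0.72 and 0.06. None of these 5 lists held an agreeing lower lncRNA, and module 1 held 1 agreeing higher lncRNA among 221 (0.45%). Profile 42, with 506 tested members, held 3 agreeing lower lncRNAs (0.593%) and module 3 held 1 of 73 (1.37%), beside 0.272% of all tested. The remaining profiles, 38, 46 and 48, held 0 in either direction.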

How the data were processed

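RNA of 12 livers was sequenced by the authors from strand-specific, rRNA-depleted libraries, mapped with HISAT2 2.1.0 and quantified with StringTie 1.3.3. The deposited values are FPKM, 1 table of mRNAs and 1 of lncRNAs, with every liver in its own column (0 columns were left out). FPKM is by definition relative to the mapped total of each library, so a few abundant transcripts can lower the values of the rest. Whether the deposited values follow the mapped totals of the study's read statistics was not tested here. No counts or depths are in the tables, so no counting interval is given.

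Tests used limma 3.58.1 (R 4.3.3) and the log2(FPKM + 1) scale, which understates differences of low transcripts. All 12 livers entered 1 model with 4 stage means and 8 residual degrees of freedom, with a variance trend, and p-values were adjusted over each table by Benjamini and Hochberg's method, 1 contrast at a time. Named mRNAs were the 2 largest rises and 2 largest falls called alike with livers apart in both pairs, and the largest opposed pair of calls in each direction. Named lncRNAs were those of the same rule and the 5 of the study's quantitative PCR. The transcripts, lists and rules were chosen with earlier results of these data known. Of 18260 mRNA identifiers, 0 matched a symbol in the reference table, so gene lists and markers of cell types were not used here. Primer sequences come from the study's primer sheet. Labels name 3 birds a stage. In the main model each p-value weighs a difference against the spread between birds of a stage. That spread was estimated over all 4 stages and drawn towards a trend over transcripts. Alternatives were another added value (0.1), filter, scaling, model or replicate block, and leaving out each liver. Tables and figures were made in Python 3.11.15 with numpy 2.4.6, pandas 2.3.3 and matplotlib 3.10.9.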

Additional observations from a re-analysis of the deposited data

Results flagged for a closer look

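The 2 differences differed by their own limma test for 5 of the 15 named transcripts. Over all tested, this test called 7.02% of mRNAs and 0.56% of lncRNAs. ENSGALT00000083848 and ENSGALT00000031546 were named for the largest difference among opposed calls, so their passing follows largely from that choice. Others described above passed this test too, 5 more of the 9 large rises and the first of the 2 rises not called in BP minus SM (8.11, adjusted p = 0.042). PL minus JP was the higher by 5.08 for ENSGALT00000060226, by 4.32 for ENSGALT00000051020 and by 4.60 for ENSGALT00000083848 on the log2(FPKM + 1) scale. For ENSGALT00000031546 the difference was -5.16 and for TCONS_00037924 it was -3.71, with PL minus JP the lower.

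A single liver lay far from the other 5 in 3 of 30 groups of 6 examined among the named transcripts. The cut-off is passed by chance in about 1 in 20 groups drawn from a single normal distribution. The groups here join stages that can differ, and some values lie near 0, so that rate need not hold for them. For TCONS_00233135, PL replicate 3 was at 0.4885 on the log2(FPKM + 1) scale among PL and BP livers at 0 to 0.02. For TCONS_00155619, SM replicate 2 was at 0.6759 among the JP and SM livers, and for TCONS_00155620, JP replicate 1 was at 0.4033 among them.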

How the results depend on the processing

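No transcript called in any of the 5 comparisons of either table was called in the opposite direction under any alternative fitted for it. Another filter or model, or the replicate block, leaves a difference itself unchanged, as does leaving out a liver outside it. A call could not turn under these, so the result bears only on the remaining alternatives. The test between the 2 differences was not fitted on separate livers. Fitting each difference on its own 6 livers, and the mean as 2 groups of 6, gave 185 agreeing mRNAs, 30 called alike, 1727 in PL minus JP and 90 in BP minus SM, and 7, 1, 3 and 8 lncRNAs in the same order. The test between the 2 differences called 2100 mRNAs after median-ratio scaling and 2034 after TPM scaling. For lncRNAs, 0.1 added in place of 1 gave 200 agreeing, 19 called alike, 239 in PL minus JP, 141 in BP minus SM and 81 between the differences, and no filter gave 28, 3, 30, 52 and 18. Median-ratio scaling gave 130 lncRNAs in PL minus JP and 50 in BP minus SM, TPM scaling gave 186 and 47, the stricter filter gave 42 in BP minus SM, and no variance trend gave 54 between the differences. The cause of these changes was not tested.

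Leaving out each liver in turn gave 984 to 1846 agreeing mRNAs, 30 to 175 called alike, 2245 to 4140 in PL minus JP, 76 to 425 in BP minus SM and 580 to 2196 between the differences, with all 5 highest counts without PL replicate 3. For lncRNAs the ranges were 32 to 84, 3 to 9, 42 to 143, 54 to 96 and 10 to 95. Same-numbered livers deviated together little, with correlations of -0.05 to 0.09. The PL and BP livers did not match their own number best among the mRNAs, but most of them did among the lncRNAs. The numbers were not taken to pair the birds in the main model. With the replicate block 1265 mRNAs agreed and 59 were called alike, and 38 and 4 lncRNAs, with 42 lncRNAs in PL minus JP and 23 between the differences. FPKM alone does not give the depth behind a value, and most lncRNAs were low.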
